A study of Homo sapiens with 9 samples.

Results

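The genes RUNX1, RUNX2, RUNX3 and CBFB were followed through 4 deposited lists of accessible regions of Jurkat cells (clone E6-1), a human T cell leukaemia line. Accessibility was measured by FAIRE-seq, which enriches nucleosome-poor DNA by phenol-chloroform extraction of cross-linked, sonicated chromatin. Peaks of the 4 lists that overlapped or touched were joined into 40703 regions on the autosomes, X and Y. Of these, 86 lay in the gene body of a member or within 50 kb of its transcription start site (TSS), with 54 at RUNX1, 16 at RUNX2, 9 at RUNX3 and 7 at CBFB. Each region is described by the lists that hold a peak in it and by the fold enrichment of that peak over the total input, as given by the peak caller in column 7 of its lists and called enrichment here.

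RUNX proteins are transcription factors that bind DNA through the Runt domain, and CBFB is their shared partner, which does not contact DNA itself but stabilises the binding. Each RUNX gene has a distal promoter (P1) and a proximal promoter (P2), which give proteins with different amino ends. RUNX1 and RUNX3 are known for their part in T cell development, RUNX2 for its part in bone formation, and RUNX1 for its place beside TAL1, GATA3 and ETS-family factors in the transcriptional circuit of T cell leukaemias. The RUNX core motif is read as TGTGGT or TGCGGT, or on the other strand as ACCACA or ACCGCA.

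By their labels, the 4 lists come from non-stimulated (NS) cells and stimulus-withdrawn (SW) cells, each after DMSO or after 15 μM rottlerin, an inhibitor used against PKC-theta, for 1 h. The SW cells had received 24 ng/mL phorbol ester (PMA) with 1 μM calcium ionophore for 4 h by the labels (the study's methods give a shorter time), and were then washed and rested for 1 day. The other 5 of the 9 samples were not analysed here. By their labels they are stimulated and re-stimulated cells, each after DMSO or rottlerin, and the total input. The total input enters only through the enrichments of the peak caller. All 4 lists come from this single leukaemia clone, with 1 library each, so there is no replicate spread to weigh a difference between lists by and no test was made.

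The labels of the lists are in doubt. The methods of the study describe peak calling on the DMSO samples alone, followed by pooling, whereas the labels of a pair of these lists name rottlerin. Joining all peaks of the lists, other contigs included, gave 40731 regions, which equals the size of the pooled DMSO set in those methods. The DMSO samples of the study were NS, stimulated, SW and re-stimulated cells. Some lists may thus come from stimulated or re-stimulated cells, and which ones cannot be told here. Each list is therefore named by its label only, the list labelled NS, DMSO ("the NS list") served as the common reference, the other 3 were also counted together, and nothing was read from the labels about rottlerin or about stimulation. The lists held 18977 peaks (NS, DMSO), 20132 (SW, DMSO), 23835 (NS, rottlerin) and 30409 (SW, rottlerin), which put a peak in 46.5%, 49.3%, 58.4% and 74.5% of all regions in this order, and the read depth behind them is unknown. A region without a peak was thus not called in that library, which does not show that it was closed. Of 9 T cell marker genes, 6, 6, 7 and 7 had a peak within 1 kb of a TSS in the lists in this order, and CD2 had none. None of 5 myeloid and 3 erythroid markers had one in any list, PAX5 alone of 4 B cell markers had one in all lists but that labelled NS, rottlerin, and KRT8 alone of 4 epithelial markers had one in all lists but that labelled SW, rottlerin.

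The sequences at the distal promoters are shown first, because the accessible regions at the P1 starts of RUNX1, RUNX2 and RUNX3 held the same tandem pair of RUNX motifs, ACCACANNACCACA. Capitals mark RUNX matches and AP1 matches (TGAGTCA or its reverse complement TGACTCA) in every sequence, which is written 5′ to 3′ along the strand of its gene and was read from the GRCh37 genome. The pair was noticed in these sequences and then searched on both strands in the central 300 bp of every region. It was found in 30 of 40703 regions (0.0737%), and 3 of these were the P1 regions of the RUNX genes. No other member region held it. The pairs in 30 bases each, at chr21:36421556-36421585 (minus strand), chr6:45296075-45296104 (plus strand) and chr1:25291611-25291640 (minus strand), were as follows.

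RUNX1 P1: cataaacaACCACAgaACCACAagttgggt

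RUNX2 P1: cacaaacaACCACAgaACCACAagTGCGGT

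RUNX3 P1: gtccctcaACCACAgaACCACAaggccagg

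All 3 pairs shared the spacer GA, so 14 bases were identical. The first base of the pair lay 64 bp downstream of the first basic protein-coding TSS in RUNX1 and 29 bp downstream in RUNX2, and 131 bp upstream of it in RUNX3. In RUNX2 a TGCGGT match followed in the same 30 bases. A match describes the letters and shows no binding.

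Although they share these letters, the P1 regions differed in the lists that held them. The RUNX1 P1 region (chr21:36421084-36421881, overlapping the first exon) had a peak in all 4 lists, with enrichments of 5.14 (NS, DMSO), 4.04 (SW, DMSO), 4.02 (NS, rottlerin) and 3.56 (SW, rottlerin). The highest value was in the NS list. The RUNX3 P1 region (chr1:25291418-25291810, overlapping the first exon) also had a peak in all 4 lists, at 4.09, 5.12, 4.20 and 4.80 in the same order, and here the NS list held the lowest value. The RUNX2 P1 region (chr6:45295907-45296149, in exonic sequence at the start) was called in the NS list alone, at 3.12. This was a weak call, with a score of 19 and a q-value of 0.0101. The medians of all regions in the NS list were a score of 57 and an enrichment of 4.06. The part of the RUNX1 P1 region upstream of its exon (chr21:36421642-36421881) held a single RUNX match and an AP1 match, and that of RUNX3 (chr1:25291613-25291810) ended in the tandem pair.

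RUNX1 P1, upstream: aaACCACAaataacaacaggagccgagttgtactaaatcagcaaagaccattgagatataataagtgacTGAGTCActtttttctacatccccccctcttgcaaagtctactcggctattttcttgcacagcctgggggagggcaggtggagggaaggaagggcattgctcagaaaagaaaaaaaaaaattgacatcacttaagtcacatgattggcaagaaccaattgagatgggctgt

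RUNX3 P1, upstream: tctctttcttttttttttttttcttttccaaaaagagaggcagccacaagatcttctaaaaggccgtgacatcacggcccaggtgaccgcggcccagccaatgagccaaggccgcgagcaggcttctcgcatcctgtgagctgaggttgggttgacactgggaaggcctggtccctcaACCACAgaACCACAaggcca

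The proximal promoters of RUNX1 and RUNX3 and the CBFB promoter held fewer RUNX letters. Over their central 300 bp, G and C made up 51.7% at RUNX1 P2, 76.7% at RUNX3 P2 and 67% at CBFB, with a RUNX match at RUNX1 P2 only. The RUNX1 P2 region (chr21:36260252-36261235, overlapping an exon) was in all 4 lists, at 3.68, 3.46, 3.85 and 4.25 (NS, DMSO; SW, DMSO; NS, rottlerin; SW, rottlerin). A neighbouring region upstream of it (chr21:36262078-36262606), at the start of a RUNX1 transcript outside the basic set, was called in the NS list alone, at 2.53. The central 300 bp of that neighbour held 1 RUNX match. The RUNX3 P2 region (chr1:25256747-25257083, overlapping an exon) was not called in the NS list or in the list labelled NS, rottlerin, and stood at 2.91 in the list labelled SW, DMSO and 3.74 in that labelled SW, rottlerin. The CBFB promoter (chr16:67062543-67063061, overlapping the first exon) was called in the lists labelled NS, rottlerin (3.31) and SW, rottlerin (3.30) and in neither other list. No RUNX match lay in the non-exonic parts printed here, which cover chr21:36260988-36261235 (minus strand), chr1:25256768-25257067 (minus strand) and chr16:67062587-67062886 (plus strand).

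RUNX1 P2: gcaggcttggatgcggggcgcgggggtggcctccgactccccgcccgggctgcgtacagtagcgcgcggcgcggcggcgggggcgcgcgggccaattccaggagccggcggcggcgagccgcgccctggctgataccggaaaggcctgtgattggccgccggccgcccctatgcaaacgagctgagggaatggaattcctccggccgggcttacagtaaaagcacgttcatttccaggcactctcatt

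RUNX3 P2: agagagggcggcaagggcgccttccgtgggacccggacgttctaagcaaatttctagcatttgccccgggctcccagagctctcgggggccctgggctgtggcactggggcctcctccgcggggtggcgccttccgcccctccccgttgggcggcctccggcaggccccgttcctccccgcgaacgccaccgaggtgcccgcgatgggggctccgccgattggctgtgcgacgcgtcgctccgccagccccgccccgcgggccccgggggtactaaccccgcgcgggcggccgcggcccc

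CBFB promoter: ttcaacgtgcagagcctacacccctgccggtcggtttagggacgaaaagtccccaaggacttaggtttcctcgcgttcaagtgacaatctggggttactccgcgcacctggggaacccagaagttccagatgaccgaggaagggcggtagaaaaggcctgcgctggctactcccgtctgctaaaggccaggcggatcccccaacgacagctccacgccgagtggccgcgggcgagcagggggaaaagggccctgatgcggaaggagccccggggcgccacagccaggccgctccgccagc

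The plot of start-site regions sets these values side by side with those of the regions found in every list but the NS list, which are described under each gene. No start-site region of a member showed that second combination. By the same rule, 34.4% of 19785 protein-coding genes had a peak within 1 kb of a protein-coding TSS in all 4 lists, as RUNX1 and RUNX3 did over all their starts. The combination seen at RUNX2, a start-site peak in the NS list alone, was found in 0.601% of the genes, and that of CBFB, in both rottlerin-labelled lists alone, in 2.99%.

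**Figure D1:**
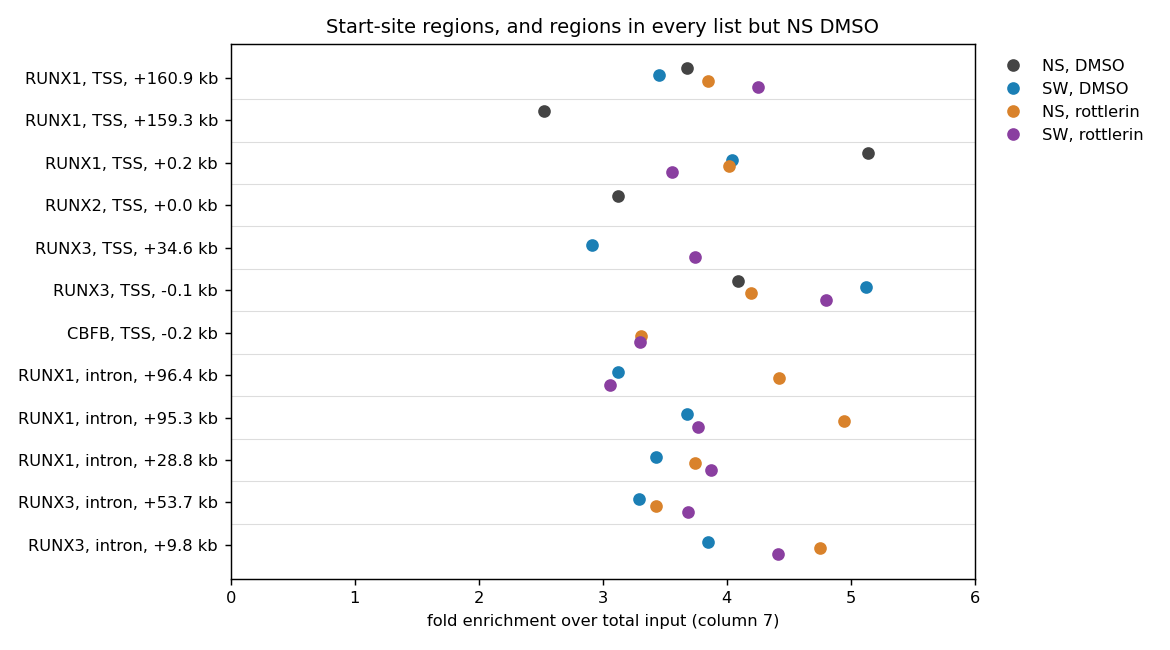
Enrichment over total input (horizontal axis, fold) of the 7 start-site regions and of the 5 intronic regions with a peak in every list but the NS list. Each line is a region, named by its gene and the distance of its mid-point from the first basic protein-coding TSS in kb, and each point is the peak of 1 list (colours), so a missing colour is a list without a peak. RUNX1 P1 (+0.2 kb) is highest in the NS list at 5.14, RUNX2 P1 has a point for the NS list only, and CBFB has points for both rottlerin-labelled lists only.

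RUNX1 (ENSG00000159216, chr21:36160098-37376965, minus strand) had more regions than any other of 20136 protein-coding genes under the same rule, where the median gene had 3. Its gene record is stretched upstream by a single non-basic transcript, so that the window spanned 1267 kb. At 4.26 regions per 100 kb, its density was above that of 78.2% of genes (median 2.13). Within the span of its basic protein-coding transcripts and 50 kb around their first TSS, 35 regions remained, and with all genes counted that way 1 gene, AUTS2 with 38, had more. Counted that way, RUNX1 held 11.2 regions per 100 kb, a density above that of 99.7% of genes (median 2.08). In the whole record, 27 of 54 regions had no NS peak, and in the basic span 16 of 35.

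**Figure D2:**
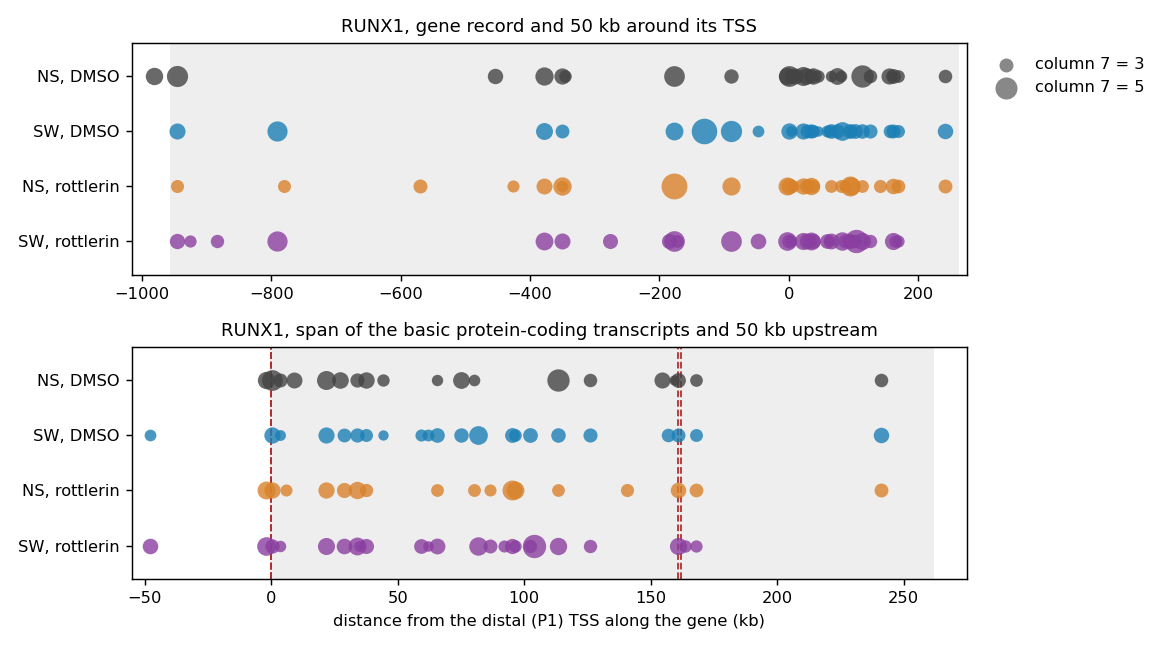
Peaks at RUNX1 in the 4 lists by distance from the P1 TSS (horizontal axis, kb along the gene), over the whole window (top) and over the basic protein-coding transcripts with the 50 kb upstream (bottom). Each point is a region with a peak in that list, its area grows with enrichment, grey marks the gene record (top) or the basic transcripts (bottom), and dashed lines are basic protein-coding TSSs. Of the 54 regions, 35 lie in the lower panel, and the SW, rottlerin list, with a peak in 74.5% of all merged regions, has one in 35 of the 54.

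The highest enrichment of any member region was 178 kb upstream of RUNX1 P1. This region (chr21:36599263-36599982) lies in an intron of the longest RUNX1 transcript and had peaks in all 4 lists, at 5.12 (NS, DMSO), 4.43 (SW, DMSO), 6.41 (NS, rottlerin) and 5.12 (SW, rottlerin). All 4 values exceeded those of the P2 region. The next highest at RUNX1 belonged to regions that a single list called. One, 131 kb upstream of P1 (chr21:36552503-36552778), reached 6.33 in the list labelled SW, DMSO, and its nearest NS peak was 41.1 kb away. Another, 104 kb downstream of P1 in the intron before P2 (chr21:36317572-36318016), reached 5.78 in the list labelled SW, rottlerin. High enrichment in 1 list thus occurred at RUNX1 without a call in any other.

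The intron between P1 and P2 of RUNX1 is known to carry a haematopoietic enhancer. The widest member region, 2785 bp, lay in it 21.7 kb downstream of P1 (chr21:36398502-36401286) and was called in all 4 lists, at 4.70, 4.00, 4.03 and 4.23. It was singled out for its width after its values were seen. The same intron held 3 regions with a peak in every list but the NS list. The first (chr21:36392714-36393026, 28.8 kb downstream) stood at 3.43 (SW, DMSO), 3.74 (NS, rottlerin) and 3.87 (SW, rottlerin), and an NS peak began 908 bp away. That neighbour (chr21:36393935-36394685) was the highest-scoring RUNX1 region of the NS list alone, at 4.12. Neighbouring stretches of the same intron were thus called in different lists.

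The other pair lay close together, 95.3 kb (chr21:36326221-36326559) and 96.4 kb (chr21:36325082-36325368) downstream of P1. The first had enrichments of 3.68, 4.94 and 3.77 (SW, DMSO; NS, rottlerin; SW, rottlerin). The second had 3.12, 4.42 and 3.06 in the same order. Both were highest in the list labelled NS, rottlerin, and their nearest NS peaks lay 14.8 and 16.0 kb away. None of the 3 RUNX1 regions of this kind held a RUNX or an AP1 match in its central 300 bp. The central part of the stronger (chr21:36326240-36326539, minus strand), printed for contrast with the RUNX3 regions of the same kind, was as follows.

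RUNX1 intron: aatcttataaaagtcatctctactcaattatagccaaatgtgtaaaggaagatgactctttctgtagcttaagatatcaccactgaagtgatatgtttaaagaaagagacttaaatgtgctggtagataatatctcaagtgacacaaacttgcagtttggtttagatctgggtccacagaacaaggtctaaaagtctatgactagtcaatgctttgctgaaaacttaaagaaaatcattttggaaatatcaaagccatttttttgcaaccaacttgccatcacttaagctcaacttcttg

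RUNX3 (ENSG00000020633, chr1:25226002-25291612, minus strand) had 9 regions, 7.78 per 100 kb, a density above that of 95.6% of genes. It had 3 peaks in the NS list, 7 in the list labelled SW, DMSO, 6 in that labelled NS, rottlerin and 8 in that labelled SW, rottlerin. The NS list thus held the fewest, and 6 of 9 regions had no NS peak (66.7%, 95% Wilson interval 35.4 to 87.9). That interval covers the 53.5% of all regions, so the share could not be told from the background at this number of regions.

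Of these, 2 had a peak in every list but the NS list, and both lie in introns. One, 9.76 kb downstream of P1 (chr1:25281541-25281939), stood at 3.85 (SW, DMSO), 4.75 (NS, rottlerin) and 4.41 (SW, rottlerin). The other, 53.7 kb downstream (chr1:25237664-25237921), stood at 3.29, 3.43 and 3.68. Their nearest NS peaks lay 9.63 and 13.8 kb away. Unlike the RUNX1 regions with this combination of lists, both held RUNX and AP1 matches. Of all regions without an NS peak, 35.9% held a RUNX match and 19.8% an AP1 match in the central 300 bp. The regions with this combination are too few to compare the genes by their matches. In the first, an AP1 match and a RUNX match lay 3 bases apart. The sequences cover chr1:25281590-25281889 and chr1:25237664-25237921 (minus strand).

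RUNX3 intron, near P1: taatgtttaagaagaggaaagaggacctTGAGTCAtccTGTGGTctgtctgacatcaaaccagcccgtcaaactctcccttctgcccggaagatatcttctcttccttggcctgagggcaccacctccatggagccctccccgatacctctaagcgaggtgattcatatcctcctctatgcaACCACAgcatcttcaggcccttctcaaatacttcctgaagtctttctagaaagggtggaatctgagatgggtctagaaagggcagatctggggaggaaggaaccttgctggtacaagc

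RUNX3 intron, 3′ part: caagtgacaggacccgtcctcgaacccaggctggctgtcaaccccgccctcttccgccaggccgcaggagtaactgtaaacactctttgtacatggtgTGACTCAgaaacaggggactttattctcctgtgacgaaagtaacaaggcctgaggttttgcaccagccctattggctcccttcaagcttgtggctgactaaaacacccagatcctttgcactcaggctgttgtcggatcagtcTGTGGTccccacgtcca

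The highest enrichment at RUNX3 was found in an intron 39.6 kb downstream of P1 (chr1:25251611-25252214). It had peaks in all 4 lists, at 3.89 (NS, DMSO), 4.80 (SW, DMSO), 6.10 (NS, rottlerin) and 5.95 (SW, rottlerin), with the lowest in the NS list. Its neighbour 42.6 kb downstream of P1 (chr1:25248776-25249095) was called in the SW-labelled lists alone, at 4.70 (SW, DMSO) and 5.13 (SW, rottlerin). Across the whole gene, no region was called in the NS list alone.

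RUNX2 (ENSG00000124813, chr6:45295894-45632086, plus strand) had 16 regions, a count that 93 genes exceeded, at 4.14 per 100 kb. Peaks numbered 7 (NS, DMSO), 6 (SW, DMSO), 9 (NS, rottlerin) and 12 (SW, rottlerin), and 9 of the 16 regions had no NS peak. Its highest regions lie in introns downstream of P2. The region at 161 kb (chr6:45456641-45456989) stood at 5.98, 4.79, 3.61 and 4.40, highest in the NS list. The region at 109 kb (chr6:45404562-45405118) stood at 3.98, 5.15, 5.88 and 5.04, and that at 167 kb (chr6:45462513-45464038) at 4.02, 3.74, 5.07 and 3.88, both highest in the list labelled NS, rottlerin. All 3 were in all lists, and they did not share an order of the lists.

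No peak lay within 1 kb of RUNX2 P2. The nearest, with its mid-point 1601 bp upstream of a P2 start (chr6:45388533-45388709), was called in the list labelled SW, rottlerin alone, at 3.27, and was picked out after its values were seen. Its central 300 bp held 3 RUNX matches, unlike the proximal promoters of RUNX1 and RUNX3. A RUNX2 region in all 4 lists (chr6:45345209-45345926, 4.12, 4.63, 4.26 and 4.54) covers the start of SUPT3H, a gene that overlaps RUNX2 and encodes a chromatin-modifying complex subunit. It was counted by position, and which gene it serves was not tested.

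CBFB (ENSG00000067955, chr16:67062887-67134961, plus strand) had 7 regions, 5.73 per 100 kb, with 3, 2, 5 and 5 peaks in the lists in the same order. Its single region in all 4 lists lay 11.03 kb upstream of the start (chr16:67051856-67052129), at 4.83, 4.51, 5.38 and 4.60. The highest, in an intron 23.9 kb downstream (chr16:67086782-67087147), stood at 5.04 (NS, DMSO), 6.20 (NS, rottlerin) and 4.96 (SW, rottlerin) and was not called in the list labelled SW, DMSO. A further intronic region 34.0 kb downstream (chr16:67096891-67097231) was, like the promoter, in the rottlerin-labelled lists alone, at 5.05 and 4.59. The NS list alone held a region in the last exon (chr16:67134625-67135084), at 3.46. CBFB thus had a distal upstream region in every list while its promoter was called in 2 of them.

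**Figure D3:**
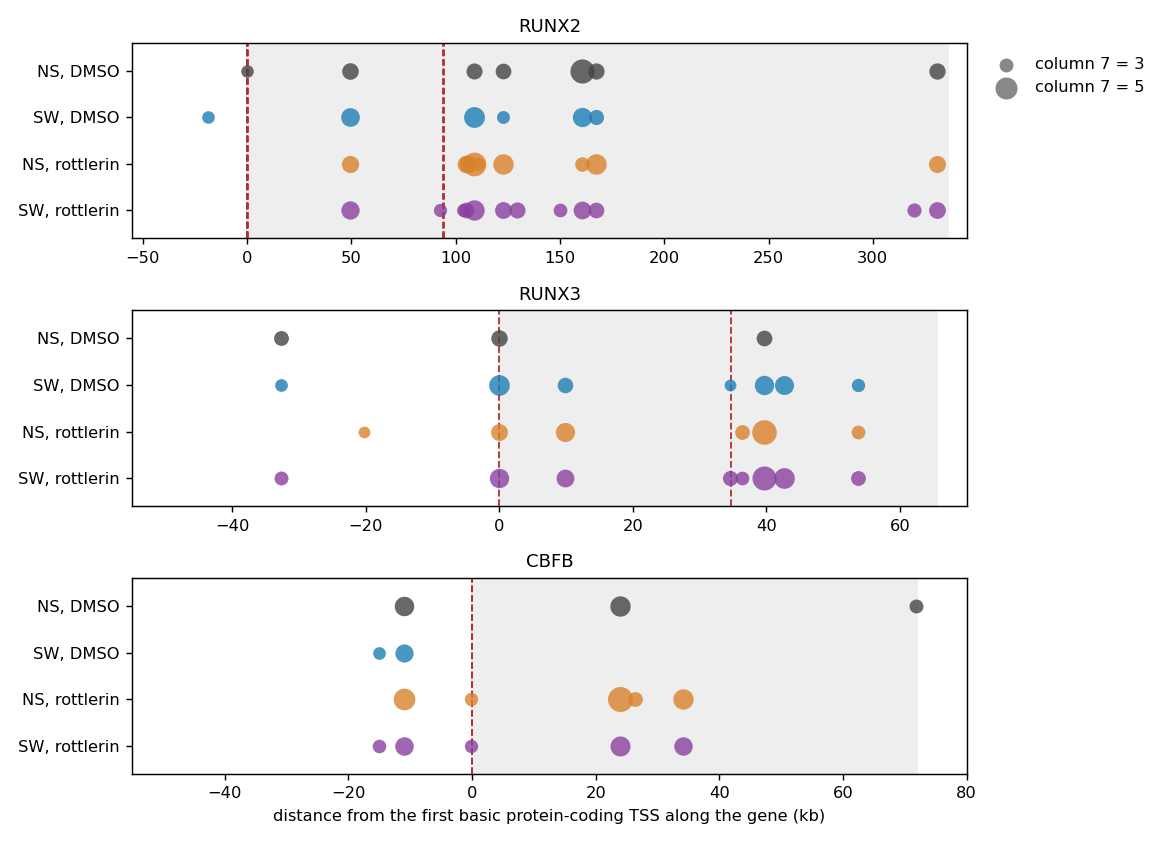
Peaks at RUNX2, RUNX3 and CBFB in the 4 lists by distance from the first basic protein-coding TSS (horizontal axis, kb along the gene). Each point is a region with a peak in that list, its area grows with enrichment, grey marks the basic transcripts and dashed lines are basic protein-coding TSSs. RUNX3 has 3 points in the NS line against 7, 6 and 8 in the others, and CBFB has no point at its start in the DMSO-labelled lines.

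The windows ended between regions on either side of the 50 kb limit upstream of the gene TSS. At RUNX1 the last region inside and the first outside lay 26.0 and 55.6 kb away with highest enrichments of 4.31 and 4.14. At RUNX2 they lay 18.4 and 115 kb away (3.12 and 5.83), at RUNX3 32.4 and 57.2 kb away (3.68 and 5.32), and at CBFB 14.6 and 66.7 kb away (3.37 and 2.99). By place, 50 of the 86 regions lay in introns, 20 in introns of the longest RUNX1 transcript alone, 10 overlapped exons and 6 lay outside the gene bodies.

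Over the 4 genes, the member regions were spread over the lists much as all regions were. No peak in the NS list was found for 46 of 86 (53.5%, 95% Wilson interval 43.0 to 63.7), against 53.5% of all regions. A peak in every list but the NS list was found for 5 (5.81%) against 7.08%, and these were the 3 RUNX1 and 2 RUNX3 regions. All 4 lists held 21 (24.4%) against 26.6%, with 13 at RUNX1, 5 at RUNX2, 2 at RUNX3 and 1 at CBFB. The NS list alone held 9 (10.5%) against 7.83%, and a single list other than NS held 27 (31.4%) against 31%. The SW-labelled lists alone held 9 (10.5%) against 6.26%, and the rottlerin-labelled lists alone held 5 (5.81%) against 8.44%. These intervals cover counting error only, and regions of 1 gene are not replicates of a condition.

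**Figure D4:**
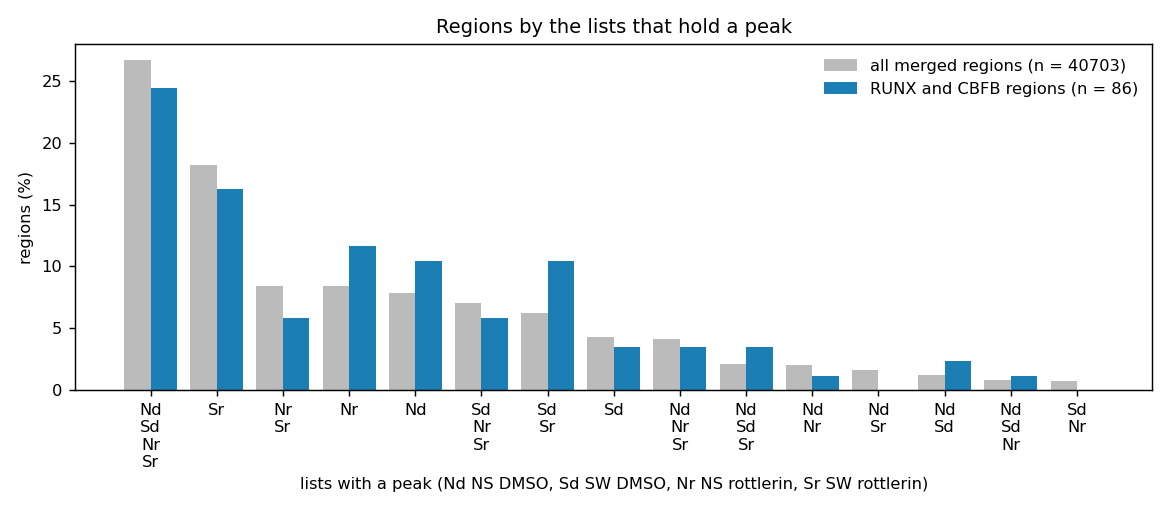
Share of regions (vertical axis, %) by the lists with a peak in them (horizontal axis), for all 40703 merged regions (grey) and the 86 regions of RUNX1, RUNX2, RUNX3 and CBFB (blue). The order of the bars is that of all regions. A peak in all 4 lists is the most frequent for both, at 26.6% and 24.4%.

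The 46 regions without an NS peak lay a median of 9.11 kb from the nearest NS peak, from 0.908 to 166 kb. Of 5793 protein-coding genes with at least 5 regions, the median gene had no NS peak in 42.9% of them. RUNX1 had 50% (27 of 54), RUNX2 56.2% (9 of 16), RUNX3 66.7% (6 of 9) and CBFB 57.1% (4 of 7). All were above that median, and the Wilson interval of each covers it.

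Regions called in the NS list and in another list allow their enrichments to be compared, and the 3 comparisons share the NS list. In the list labelled SW, DMSO, 10 of 27 shared member regions were higher than in the NS list (37.0%, interval 21.5 to 55.8), where 45.1% of all shared regions were. The median ratio was 0.928, and none was at least 1.5-fold higher (1.67% of all) and 1 at least 1.5-fold lower (2.18% of all). In the list labelled NS, rottlerin, 19 of 26 were higher (73.1%, 53.9 to 86.3, against 58.7% of all), with a median ratio of 1.07, 1 at least 1.5-fold higher (3.19% of all) and 3 at least 1.5-fold lower (1.38% of all). In the list labelled SW, rottlerin, 12 of 27 were higher (44.4%, 27.6 to 62.7, against 63.2% of all), with a median ratio of 0.988, 1 at least 1.5-fold higher (4.5% of all) and none lower (1.54% of all). The interval of the last share ends just below the share of all regions, and the other intervals cover theirs. The share of the members moved both ways under other settings. With the same number of highest-scoring peaks per list it was 52.2% (33.0 to 70.8). With 10 kb in place of 50 kb around the TSS it was 48% (30.03 to 66.5). With peaks within 1 kb merged it was 42.9% (26.5 to 60.9), and with q-values of 0.05 or less it stayed at 44.4%. The share of all regions under these settings is not given, so whether the gap held there cannot be told.

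The region past 1.5-fold higher was the same in both rottlerin-labelled lists, the RUNX3 region 39.6 kb downstream of P1, at ratios of 1.57 and 1.53. Those past 1.5-fold lower were at RUNX1 and RUNX2. A RUNX1 region 113 kb downstream of P1 (chr21:36307812-36308988) had 5.53 in the NS list, 3.61 (SW, DMSO; ratio 0.652), and 3.16 (NS, rottlerin; ratio 0.572), with 4.30 in the list labelled SW, rottlerin. The RUNX2 region at 161 kb had a ratio of 0.604 in the list labelled NS, rottlerin, and a RUNX1 region 946 kb upstream of P1 (chr21:37367522-37368246) went from 5.24 to 3.24 there.

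Member regions were wider than regions at large and, where shared by all lists, poorer in CpG. The median width was 340 bp against 294 bp for all regions, and the median share of G and C 44.3% against 46.3%. Among regions in all 4 lists, members had a median width of 725 bp against 445 bp, 42.7% G and C against 57%, and 3 CpGs in the central 300 bp against 15. The 21 member regions in all lists were mostly intronic, and 4 of the 21 covered a start site of a member or of SUPT3H. No split of all regions by distance from a start site is given, so the CpG contents were not compared like for like.

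The RUNX motif was found in the central 300 bp of 36 of 86 member regions (41.9%, interval 32.0 to 52.4) against 37.9% of all regions. By gene, 18 of 54 held it at RUNX1, 8 of 16 at RUNX2, 7 of 9 at RUNX3 (77.8%, interval 45.3 to 93.7) and 3 of 7 at CBFB. Only the RUNX3 interval lies above the share of all regions, and the 9 regions are of 1 locus. At least 2 matches were found in 13 member regions (15.1%) and in 9.08% of all regions. Most were seen at the RUNX2 P1 region, with 4. Of the member regions with an NS peak 20 of 40 held the motif and of those without 16 of 46, against 40.2% and 35.9% of all regions with and without an NS peak.

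Other motifs were near their shares in all regions. AP1 was found in 16.3% of member regions and 13.2% of all. ETS was read as CCGGAA, or with another second base as CAGGAA, and was found in 39.5% of member regions and 44.8% of all. GATA was read as AGATAA, or with the other first base as TGATAA, and was found in 38.4% and 31.5%. NFAT (TGGAAA) was found in 31.4% and 27.9%. The E-box, with CACCTG, the palindrome CAGCTG and the form CATCTG, was found in 48.8% and 48.0%. Both strands were searched. ETS and NFAT sequences share the letters GGAA.

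Genes that act with the RUNX proteins gave similar shares. In a list of 10 genes of the T cell leukaemia circuit, 44 of 88 regions had no NS peak (50.0%), and the genes ranged from 1 region at LMO1 to 28 at TCF12. ETS1, an ETS-family partner of RUNX1, had 16 regions (5 without an NS peak), as many as RUNX2. GATA3 had 4 (2 without), TAL1, the factor switched on in this leukaemia, 3 (2 without), TCF3, an E-protein, 4 (1 without), and MYB 9 (4 without). RUNX3 and MYB thus had equal counts. In a list of 13 RUNX co-factors, 42 of 88 regions had no NS peak (47.7%), from 1 region at PRMT6 to 28 at CDK6. In a list of 15 known RUNX targets in T cells, 39 of 76 regions had no NS peak (51.3%) when regions shared by neighbouring genes were counted once, from 2 regions at RAG1, IL2 and PRF1 to 11 at TCF7. These shares lie near the 53.5% of all regions.

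**Figure D5:**
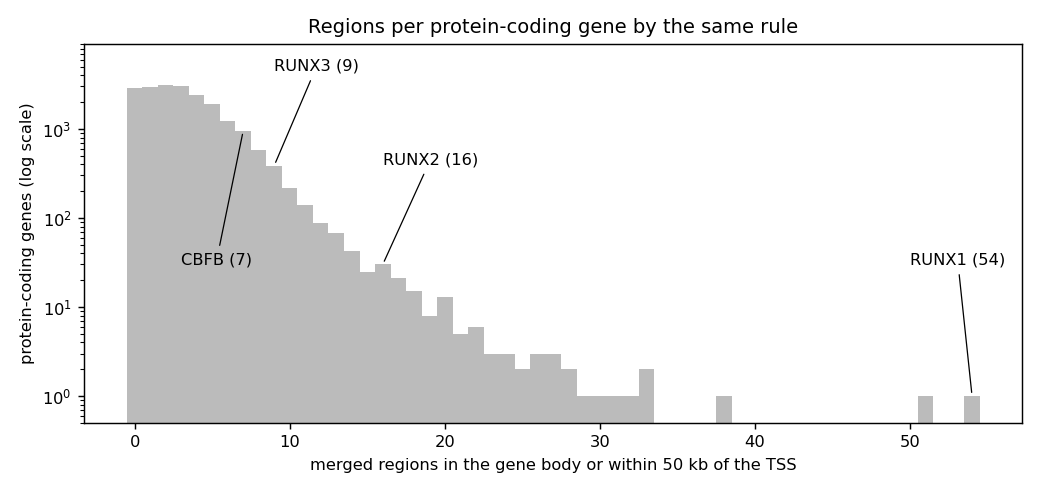
Number of protein-coding genes (vertical axis, log scale) by the number of merged regions in the gene body or within 50 kb of the TSS (horizontal axis). RUNX1 lies at 54, the highest count of any gene, RUNX2 at 16, RUNX3 at 9 and CBFB at 7, and the median gene has 3.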

How the data were processed

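FAIRE-seq libraries of Jurkat cells were analysed from 4 deposited peak lists, 1 per library. By the submitters' notes and the study's methods, the authors trimmed reads with cutadapt, mapped them with Bowtie2 to hg19 (GRCh37), discarded duplicates using Picard, and called broad peaks against the total input with MACS2. The deposited lists give a score per peak, its fold enrichment (a ratio), and p-value and q-value as −log10. The largest q-value per list was 0.0946 to 0.0983, and all peaks were kept.

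Peaks that overlapped by at least 1 bp or touched were joined on the autosomes, X and Y, without regard to strand. A region took the highest value of every list that had a peak there. Genes were taken from GENCODE release 44 on GRCh37. A region belonged to a gene if it met the gene body or lay within 50 kb of its TSS. A start-site region lay within 1 kb of the TSS of a protein-coding transcript. Motifs were sought by exact match on both strands in the central 300 bp. Shares have 95% Wilson intervals, which cover counting error only. There was 1 library per group, so no test and no p-value was computed.

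Named in full are the start-site regions, the 3 regions of highest enrichment per gene, the regions in every list but the NS list, and the highest-scoring region of the NS list alone per gene. From the gene lists, ETS1, GATA3, TAL1, TCF3 and MYB and the genes with the most and fewest regions are named. The members, lists and rules were chosen with earlier results of these data known, and the tandem motif pair after the sequences were seen. AUTS2, the regions past 1.5-fold, the SUPT3H start region and the markers named one by one were picked out after their values were seen. Merging and motif search were tested on simulated data, and 2000 of 2000 planted regions and 500 of 500 planted sites were recovered. The planted regions lay well apart and the planted sites were exact strings, so touching or closely neighbouring peaks were not tried. Python 3.11.15, numpy 2.4.6, scipy 1.17.1 and matplotlib 3.10.9 were used.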

Additional observations from a re-analysis of the deposited data

How the results depend on the processing

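Over 14 settings, 9 counts and shares of the member regions gave 107 alternative values, of which 96 stayed within the interval or within 1.5 times of the reported value and 11 moved. The shares by list below are of member regions alone, without the share of all regions under the same setting. A shift in them is therefore not shown to be particular to these genes. With the higher-scoring 50% of each list, 38 regions remained and 13.2% of them were in all 4 lists. With the same number of highest-scoring peaks per list, 38.5% had no NS peak. With 50 kb of the TSS alone, 20 regions remained and 65.0% held a RUNX motif (interval 43.3 to 81.9). Of all regions that near to a protein-coding TSS, 34.7% did. For RUNX1 this TSS was the start of the stretched gene record, 955 kb from the P1 region, so its P1 and P2 regions were left out. RUNX3, where 7 of 9 regions held the motif by the main rule, kept nearly all of its regions. The 65.0% is therefore not a share for the promoters of the 4 genes. In the central 500 bp 53.5% of member regions held it, and 48.1% of all regions. Without the list labelled NS, rottlerin, 18.4% were called in each list but the NS list. An alternative added after seeing the data left out both rottlerin-labelled lists, whose labels are in doubt. No NS peak was then found in 31.0% of regions, which is also the share with a peak in each other list, a peak in both lists in 44.8% and in the NS list alone in 24.1%. Leaving out a list drops the regions called only there and leaves fewer lists to meet. Such shares therefore change by definition and do not show how stable the reported ones are. The other added alternative, basic protein-coding transcripts in place of the gene record, moved none of these values, which pool the 4 genes. RUNX1 alone did change, from 54 to 35 regions and from 4.26 to 11.2 regions per 100 kb. No paired analysis was possible because each group has 1 library. No read depth is known from peak lists, which limits every statement on a region that was not called.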
